A study of Mus musculus with 14 samples.

Results

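Zfp809, Zfp932, Zfp708, Zfp689, Zfp568, Zfp57 and Zfp445 are 7 mouse genes for KRAB zinc finger proteins that are known for the DNA they bind, mostly transposable elements (TE). They were chosen by symbol from the deposited count tables, not by any measured value, and each was found as 1 entry in both tables, out of 32667 genes in the table of spermatogonia and 36888 in that of spermatocytes. All 7 passed the filter on low counts in every comparison. The label of the set holds only in part: ZFP809, ZFP932 and ZFP708 are known for binding endogenous retroviruses and the human counterpart of ZFP689 for silencing LINE-1, whereas ZFP568 is best known for a promoter of the gene Igf2, and ZFP57 and ZFP445 for imprinting control regions.

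A KRAB zinc finger protein reads a DNA sequence with its array of zinc fingers, and its KRAB domain recruits the corepressor TRIM28 (KAP1). TRIM28 in turn brings the histone methyltransferase SETDB1, which deposits H3K9me3, and proteins of the HP1 family that bind this mark. The system is best known from embryonic cells, where it keeps retroviruses silent and protects the methylation of imprinted loci. In male germ cells DNMT3C, a DNA methyltransferase of rodents, methylates the promoters of young retrotransposons, and the study asked how TE transcription proceeds when this methylation is missing.

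Polyadenylated RNA was sequenced from germ cells of testes of Dnmt3C KO/KO mice (KO) and wild-type littermates (WT) on a C57Bl6/J background. Spermatogonia (Spg, cells before meiosis) came from mice at postnatal day 14 and were sorted as EpCAM+, β-2-microglobulin- and DAPI- cells, with 3 KO and 3 WT libraries. Spermatocytes (Spc, cells in meiosis) came from mice older than 20 days and were sorted by DNA dye, with 4 KO and 4 WT libraries. The null allele is constitutive, so that every cell of a KO animal carries it, and stage, age of the mice and sort cannot be told apart. KO spermatocytes arrest at pachytene, while the WT gate can hold later cells. In bulk RNA, fewer cells of a type and less RNA per cell cannot be told apart.

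The libraries held 40555726 to 53323651 counts each. Dnmt3c RNA itself did not serve to check the genotype labels, since it had 58 to 116 counts in KO and 53 to 89 in WT Spg and 52 to 57 in KO and 11 to 28 in WT Spc. Summed levels of marker lists, in CPM (counts relative to the TMM-scaled library total), placed the 4 groups apart. The 6 markers of spermatogonia summed to 1090 to 1710 CPM in Spg, 421 to 1100 in KO Spc and 30.1 to 263 in WT Spc. The 5 pachytene markers summed to 7930 to 14300 CPM in WT Spc and 130 to 259 in KO Spc, with Pgk2 at no more than 0.754 CPM there. In WT Spg they summed to 187 to 1380, highest in replicate 2, and in KO Spg to 80.6 to 90.2. The 4 spermatid markers found in both tables summed to 45 to 1100 CPM in WT Spc and to at most 4.33 in any other library. Among KO Spc, replicates 1 and 4 stood apart from replicates 2 and 3, with 215 and 172 against 31.8 and 32.3 CPM for 3 Leydig cell markers, and with fewer spermatogonial markers (429 and 421 against 1100 and 1060). Sertoli cell markers (4 genes) summed to 105 to 338 CPM in KO Spg, 77.5 to 284 in WT Spg, highest in replicate 1 of each, 51 to 194 in KO Spc and 24.2 to 82.8 in WT Spc. In KO and WT Spc, macrophage markers (3 genes) summed to 12 to 61.1 and 1.84 to 3.35. The 5 early meiotic markers summed to 585 to 1070 CPM in KO Spc and 614 to 970 in WT Spc, the 2 peritubular markers to 7.89 to 131 and 2.19 to 7.75, and the 2 erythroid markers to no more than 7.42 in any library. Among KO Spc, replicate 2 had the highest peritubular (131 against 7.89 to 23.8) and macrophage sums (61.1 against 12 to 33.3). Spc replicates 1 and 4 were also much alike within each genotype, with a chi-square per degree of freedom of 11.6 (KO) and 14.9 (WT) where the other Spc pairs had 129 to 286. Both values are above counting noise, which does not show whether these libraries came from separate animals. They were kept as the separate samples that the labels give, and counts of calls with the pair summed are given among the alternatives. The marker differences go with genotype in every Spc comparison below and with stage between the WT groups, and their part in the results was not tested.

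The promoters of the pair of genes with the most opposite change between the stages in WT are shown first. They are RefSeq windows of 300 bases, 250 before and 50 after an annotated start, on GRCm38.p6, both on the minus strand and written 5′ to 3′. Capitals mark matches to CCAAT and to TAACNG or CAACNG, the core letters of MYB sites, in Zfp689 (chr7:127449109-127449408), and to the E-box CACGTG in Zfp708 (chr13:67097927-67098226), searched on both strands.
Zfp689: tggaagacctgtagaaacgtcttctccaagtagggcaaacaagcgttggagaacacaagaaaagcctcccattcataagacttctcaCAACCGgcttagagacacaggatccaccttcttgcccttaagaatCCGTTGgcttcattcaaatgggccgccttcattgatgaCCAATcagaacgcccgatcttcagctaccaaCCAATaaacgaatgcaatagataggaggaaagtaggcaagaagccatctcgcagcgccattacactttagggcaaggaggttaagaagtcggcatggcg
Zfp708: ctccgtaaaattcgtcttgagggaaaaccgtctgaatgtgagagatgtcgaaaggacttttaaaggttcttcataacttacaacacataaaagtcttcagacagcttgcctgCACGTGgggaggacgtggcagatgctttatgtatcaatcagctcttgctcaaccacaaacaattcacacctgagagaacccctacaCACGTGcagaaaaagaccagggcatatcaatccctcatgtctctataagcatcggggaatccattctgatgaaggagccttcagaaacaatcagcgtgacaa

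The Zfp689 window held 2 CCAAT and 2 MYB matches and 12 CpG dinucleotides, against a median of 7 CpG over all 32851 windows. That of Zfp708 held 2 E-boxes and 9 CpG. Of all windows, 37.4% held at least 1 CCAAT, 49.7% a MYB match and 7.2% the E-box. Zfp708 has a further window inside the gene with none of these letters. Windows were found for 6 of the 7 genes, 11 in all, and none was used here for Zfp568. None of the 11 held the palindromic NRF1 motif, searched with its middle base free, which 4.6% of all windows held, and the only match to the GC box GGGCGG (35.7% of all windows) was in Zfp445. A match is a description of letters, not of a bound site.

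Before the single genes, their order by level is given per kilobase of the longest annotated transcript, the scale on which different genes can be set side by side. In WT Spg the mean CPM per kilobase (± SD, n = 3) was 16.8 ± 1.81 for Zfp445, 12.8 ± 2.79 for Zfp809 and 8.66 ± 0.952 for Zfp568. It was 3.42 ± 0.97 for Zfp932, 2.78 ± 0.53 for Zfp689, 1.38 ± 0.445 for Zfp57 and 1.01 ± 0.245 for Zfp708. The libraries of Zfp445 and Zfp809, of Zfp932 and Zfp689 and of Zfp57 and Zfp708 overlapped, so that these neighbours were not separated. KO Spg had the same order. In WT Spc (n = 4) Zfp689 stood second, at 13 ± 2.46, between Zfp445 (17.1 ± 2.97) and Zfp809 (11.9 ± 1.68), each overlapping with the next. Zfp57 (3.87 ± 1.71), Zfp568 (3.69 ± 1.63) and Zfp932 (2.14 ± 1.03) followed, again with overlapping neighbours, and Zfp708 was lowest at 0.306 ± 0.101. The order in KO Spc was that of Spg, with Zfp689 back at 2.72 ± 0.12, below Zfp932 (3.61 ± 0.512). With the union of all exons as the length, Zfp568 moved ahead of Zfp809 in both Spg groups and in KO Spc, while Zfp445 remained first in each group. Zfp57 then came below Zfp708 in both Spg groups, Zfp689 ahead of Zfp932 in WT Spg and Zfp568 ahead of Zfp57 in WT Spc, pairs that overlapped by transcript length.

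**Figure D1:**
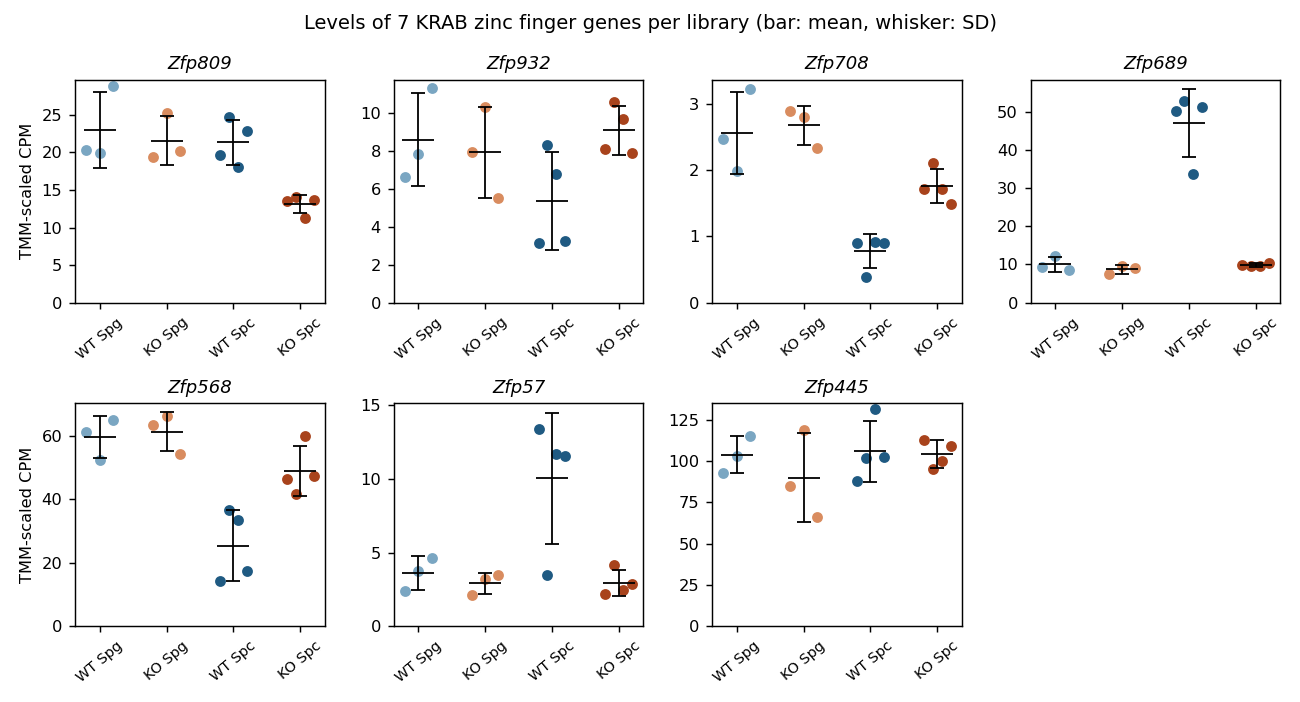
Level of each of the 7 genes in every library, in TMM-scaled CPM on a linear axis that starts at 0, for WT and KO spermatogonia (Spg, n = 3 each) and spermatocytes (Spc, n = 4 each), with the mean as a bar and the SD as whiskers. Zfp689 reaches 33.7 to 52.8 CPM in WT Spc and stays between 7.41 and 12.3 in the other 3 groups, while Zfp445 overlaps in all groups.

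The comparisons were KO against WT within each stage, Spc against Spg within each genotype, and the difference of the KO effect between the stages. Fold changes are on the log2 scale from edgeR's quasi-likelihood test with their standard error (SE), and a gene was called at a Benjamini-Hochberg adjusted p under 0.01 over all features tested. In Spg 0 of the 7 genes were called for KO against WT, where 0.0436% of all genes tested were. None had an unadjusted p under 0.05. DESeq2 and the replicate block called 0 of the 7 as well, where over all genes they called 514 (136 higher, 378 lower) and 108 (27 higher, 81 lower) and the fit without the block 9 (8 higher, 1 lower). Their log2 fold changes ran from -0.32 (Zfp57) to 0.04 (Zfp708), with a median of -0.15 beside 0.03 for all genes, and the 95% intervals reached from -1.13 (Zfp57) to 0.71 (Zfp708). In Spc 2 of 7 were called, both lower in KO (Zfp689 and Zfp57), where 58.8% of all genes were called, 28% higher and 30.7% lower. The median of the 7 was 0.00 beside 0.11 for all genes. With TMM over the Spc libraries alone, groups did not overlap for 5 of the 7, as for 68.4% of all genes. Of these 5, Zfp932 overlapped in the CPM printed here, which come from a scaling of all 14 libraries. For the difference of the KO effect between the stages 1 of 7 was called, Zfp689, where 25.7% of all genes were. Between WT Spc and WT Spg 4 of 7 were called, 2 higher and 2 lower, where 29.2% of all genes were called higher and 23.3% lower, 52.5% in all. The WT stages did not overlap for 3 of the 7, and for 66% of all genes tested. The median of the 7 was -0.11 in this comparison and 0.02 for all genes. Between KO Spc and KO Spg 0 of 7 were called, where 3.05% of all genes were. There 1 of the 7 had an unadjusted p under 0.05 (Zfp809), and DESeq2 called it. KO against WT in Spc and Spc against Spg in WT share the 4 WT Spc libraries, so that a gene high or low in these 4 moves in both.

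**Figure D2:**
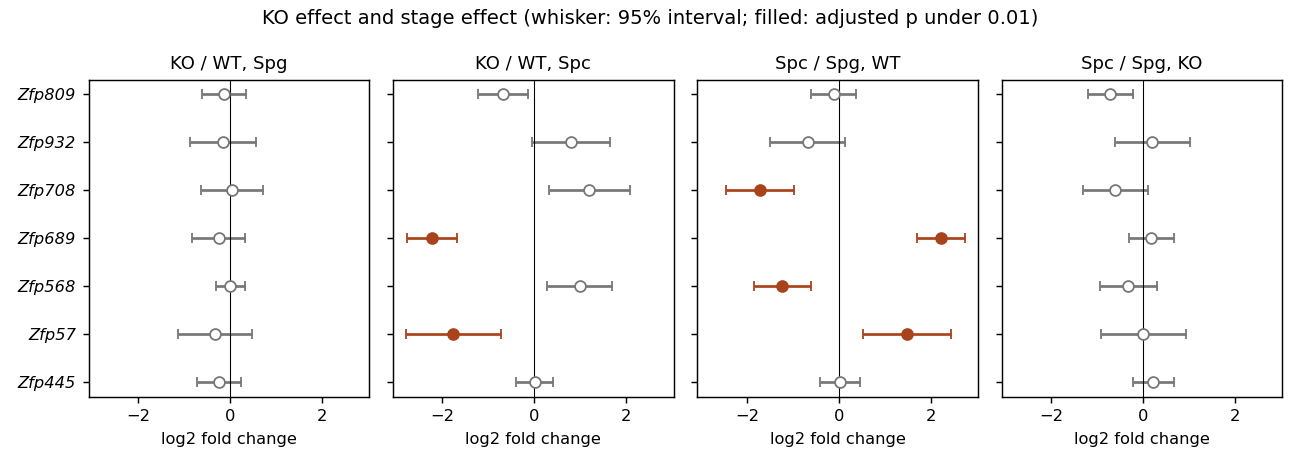
Log2 fold change of each gene with its 95% interval, for KO over WT in Spg and in Spc and for Spc over Spg in WT and in KO, filled where the adjusted p is under 0.01. Zfp689 and Zfp57 are filled below 0 for KO over WT in Spc and above 0 for Spc over Spg in WT, Zfp708 and Zfp568 are filled below 0 in the latter, and no gene is filled in the Spg panel or in the panel of KO stages.

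Zfp689 (ENSMUSG00000048921.11, chr7:127442136-127449158, minus strand, GRCm38) had the largest change of the 7 and is the gene whose human counterpart is linked to LINE-1 silencing. In WT Spg it had 9.32, 12.3 and 8.65 CPM (replicates 1 to 3) and in KO Spg 7.41, 9.61 and 9.12. In Spc it had 50.2, 52.8, 33.7 and 51.3 CPM in WT (replicates 1 to 4) and 9.97, 9.51, 9.49 and 10.4 in KO. Every WT Spc library lay above every other library, and the KO Spc libraries lay within the range of Spg. From WT Spg to WT Spc the gene rose by 2.22 (SE 0.25, adjusted p 1.27e-05), a 4.66-fold difference. KO Spc were lower than WT Spc, with a log2 fold change of -2.24 (SE 0.25, adjusted p 4.57e-05), a 4.71-fold difference. In Spg the KO effect was -0.25 (95% interval -0.83 to 0.33), and the effects of the stages differed by -2.05 (SE 0.33, adjusted p 0.000535). KO Spc and KO Spg differed by 0.18 (95% interval -0.32 to 0.67). WT Spc replicate 3, the lowest of the 4, also had the lowest pachytene marker sum (7930 against 12800 to 14300 CPM) and the highest sum of spermatogonial markers (263 against 30.1 to 152). The same library had the highest spermatid (1100 against 45 to 360) and Sertoli cell sums (82.8 against 24.2 to 28.7) of WT Spc. The call of KO against WT in Spc was kept in all 17 alternatives, with log2 fold changes of -2.36 to -1.51, also without both KO Spc replicates 1 and 4 (-2.30, adjusted p 0.00144). The calls of the WT stages and of the difference between the stages were kept in all 15 and all 23 alternatives.

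Zfp809 (ENSMUSG00000057982.8, chr9:22225714-22243354, plus strand) encodes the repressor that recognises the proline primer binding site of murine leukaemia virus and of related elements such as VL30. Its levels were 20.3, 19.9 and 28.8 CPM in WT Spg, 19.4, 25.3 and 20.1 in KO Spg, 19.6, 24.7, 18.1 and 22.9 in WT Spc and 13.5, 14.01, 11.3 and 13.6 in KO Spc. The 4 KO Spc libraries were the lowest of all 14. No comparison reached the threshold in edgeR with TMM scaling. KO Spc against WT Spc gave -0.68 (SE 0.25, adjusted p 0.0296) and KO Spc against KO Spg -0.72 (SE 0.23, adjusted p 0.067), while WT Spc and WT Spg differed by -0.11 (95% interval -0.60 to 0.38). DESeq2 called both KO Spc comparisons, at -0.75 each (adjusted p 0.000374 and 0.00546). Under scaling by library totals the KO effect in Spc turned to 0.029 (adjusted p 0.929), so that its direction depended on the scaling, and the WT stages differed by -0.93 (adjusted p 0.00341), past the threshold. Zfp809 overlaps Gm48478 on its own strand, so that reads in shared sequence could be counted for either.

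Zfp932 (ENSMUSG00000066613.14, chr5:109996521-110010411, plus strand) is known for ERVK elements such as MMERVK10C, together with its paralog Gm15446, which ends 52585 bases before it on the same strand. Zfp932 had 6.62, 7.82 and 11.3 CPM in WT Spg and 7.93, 10.3 and 5.53 in KO Spg. In Spc it had 3.12, 8.29, 6.78 and 3.27 CPM in WT and 8.11, 10.6, 9.67 and 7.90 in KO. WT Spc replicates 1 and 4 lay below every other library, whereas WT Spc replicates 2 and 3 and all KO Spc libraries lay within the range of WT Spg. KO against WT in Spc gave 0.79 (SE 0.38, adjusted p 0.0842) and Spc against Spg in WT -0.68 (SE 0.38, adjusted p 0.131), and no comparison of Zfp932 passed with TMM scaling. Under library totals the second was -1.43 (adjusted p 0.00932) and passed. Gm15446 varied widely within each group, with 163, 232 and 31 counts in KO and 26, 168 and 518 in WT Spg, and with 41, 27, 320 and 35 in KO and 6, 60, 107 and 3 in WT Spc. Since the 2 genes are similar in sequence, reads may be shared between them and the split is uncertain.

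Zfp708 (ENSMUSG00000058883.16, chr13:67069399-67097976, minus strand) encodes a repressor of the long terminal repeat RMER19B and was the lowest of the 7 per kilobase in both Spc groups. It had 2.47, 1.99 and 3.22 CPM in WT Spg, 2.89, 2.80 and 2.34 in KO Spg, 1.72, 2.11, 1.72 and 1.49 in KO Spc and 0.895, 0.392, 0.910 and 0.904 in WT Spc, from 13 to 177 counts a library. WT Spc lay below all other libraries, and KO Spc between them and KO Spg. It fell from WT Spg to WT Spc, with a log2 fold change of -1.72 (SE 0.35, adjusted p 0.000648), a call kept in 14 of 15 alternatives and lost with the replicate number as a block (-1.68, adjusted p 0.0381). KO against WT in Spc gave 1.19 (SE 0.39, adjusted p 0.0199), which DESeq2 (1.13, adjusted p 0.00205) and library totals (1.90, adjusted p 0.00302) called. The difference between the stages was 1.12 (SE 0.48, adjusted p 0.0738). Zfp708 overlaps Gm28557 and Rslcan18 on its own strand, so that reads in shared sequence could be counted for any of them and its level is uncertain.

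Zfp568 (ENSMUSG00000074221.12, chr7:29983955-30028282, plus strand) encodes the repressor of the placental promoter of Igf2, a growth factor gene. The gene had 61.2, 52.3 and 65.0 CPM in WT Spg and 63.3, 66.2 and 54.3 in KO Spg. In Spc it had 14.3, 36.5, 33.4 and 17.3 CPM in WT and 46.5, 41.7, 59.8 and 47.3 in KO. As with Zfp932, WT Spc replicates 2 and 3 lay above replicates 1 and 4, and these replicates also had more of the spermatogonial markers (152 and 263 against 35.4 and 30.1 CPM). Zfp568 fell from WT Spg to WT Spc, with a log2 fold change of -1.23 (SE 0.29, adjusted p 0.00217), a call kept in all 15 alternatives. The Spc groups did not overlap, with KO higher, but the difference of 0.98 (SE 0.32, adjusted p 0.0176) was not called. DESeq2 (0.93, adjusted p 0.00739) and library totals (1.61, adjusted p 0.00521) called it. KO Spc and KO Spg differed by -0.33 (95% interval -0.95 to 0.30), and the KO effect in Spg was 0.01 (95% interval -0.31 to 0.33).

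Igf2 itself, which ZFP568 is known to repress, stood at 19.4, 26.8 and 40.8 CPM in WT Spg and 11.7, 21.9 and 23.5 in KO Spg. In WT Spc it had 3.89, 6.03, 8.24 and 3.17 CPM and in KO Spc 246, 31.4, 28.8 and 213. Igf2 rose with KO in Spc by 4.64 (SE 0.78, adjusted p 0.00052), and without KO replicates 1 and 4, the libraries with the high Leydig cell sums, by 2.52 (adjusted p 0.00226). It was lower in WT Spc than in WT Spg by a fold change of -2.44 (SE 0.66, adjusted p 0.00526), a call that 6 of 15 alternatives did not keep. With the replicate number as a block Igf2 gave -0.97 (adjusted p 0.517), and with Spc replicates 1 and 4 summed -2.25 (adjusted p 0.0163). Among the single libraries these were Spc WT replicate 1 (-2.30, adjusted p 0.0173), 2 (-2.50, adjusted p 0.013) and 4 (-2.25, adjusted p 0.0176) and Spg WT replicate 3 (-2.27, adjusted p 0.0153). KO Spc replicates 2 and 3, kept in the fit without 1 and 4, had Leydig cell sums of 31.8 and 32.3 CPM, against 9.04 to 14 in WT Spc. The part of the Leydig cell signal in the level of Igf2 was not tested. Igf2 overlaps Gm49394 on its own strand, so that its level is uncertain, and gene counts do not tell its promoters apart.

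Zfp57 (ENSMUSG00000036036.15, chr17:37001163-37010635, plus strand) encodes the protein that holds methylation at imprinting control regions. It had 2.37, 3.76 and 4.66 CPM in WT Spg and 2.11, 3.22 and 3.46 in KO Spg. WT Spc had 13.4, 3.50, 11.7 and 11.6 CPM and KO Spc 2.22, 4.16, 2.48 and 2.87. WT Spc replicate 2 lay within the range of the other groups, so that the groups overlapped. This library also had the lowest spermatid marker sum of WT Spc (45 against 312 to 1100 CPM). Its pachytene sum (12800) lay within the range of the others (7930 to 14300). In Spc the log2 fold change was -1.77 (SE 0.47, adjusted p 0.00645), a 3.41-fold lower level in KO, and between WT Spc and WT Spg it was 1.48 (SE 0.45, adjusted p 0.00988). Both calls depended on single libraries. The first was lost when KO replicate 1 (adjusted p 0.021), 3 (0.0179) or 4 (0.0178) or WT replicate 1 (0.0186), 3 (0.0123) or 4 (0.0159) was left out, at log2 fold changes of -1.76 to -1.62. It was also lost under library totals (-1.04, adjusted p 0.0763), with the replicate block (-1.68, adjusted p 0.0379), with replicates 1 and 4 summed (-1.59, adjusted p 0.0457) and without both KO replicates 1 and 4 (-1.60, adjusted p 0.0552), 10 of 17 alternatives in all. The second was kept in only 2 of 15 alternatives, with log2 fold changes of 0.67 to 2.07 and an adjusted p of 0.00101 to 0.208 over all 15. The value of 0.67 (adjusted p 0.208) was that under library totals. With single libraries left out this second call was lost in 6 of 7 fits, all but the fit without WT Spc replicate 2. The difference between the stages (-1.48, SE 0.61, adjusted p 0.062) was not called.

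Zfp445 (ENSMUSG00000047036.8, chr9:122844529-122866006, minus strand) encodes the other protein known to protect imprinting control regions and was the highest of the 7 per kilobase in each group. It had 92.9, 103 and 115 CPM in WT Spg, 84.7, 119 and 66.1 in KO Spg, 87.7, 102, 131 and 102 in WT Spc and 113, 95.1, 99.7 and 109 in KO Spc. All 4 groups overlapped. KO against WT gave 0.00 in Spc (95% interval -0.39 to 0.40) and -0.24 in Spg (95% interval -0.72 to 0.24), and WT Spc against WT Spg gave 0.03 (95% interval -0.41 to 0.47). Under library totals the WT stages differed by -0.75 (adjusted p 0.0153) and the genotypes in Spc by 0.66 (adjusted p 0.03), neither past the threshold. Zfp445 overlaps Gm47140 on its own strand. Whether the changes of Zfp57 and Zfp445, whose proteins act on the same kind of sites, differed from each other was not tested.

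The choice of scaling shifted all genes in the Spc comparisons. For KO against WT in Spc, all genes had a median of 0.11 with TMM and of 0.79 with library totals, and for WT Spc against WT Spg of 0.02 and -0.76. Under each of the 4 scalings Zfp689 was the lowest of the 7 in the first of these comparisons and the highest in the second. Zfp708, Zfp568, Zfp932 and Zfp57 also held their directions under all 4 in both, while Zfp809 in the first and Zfp445 in both did not.

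**Figure D3:**
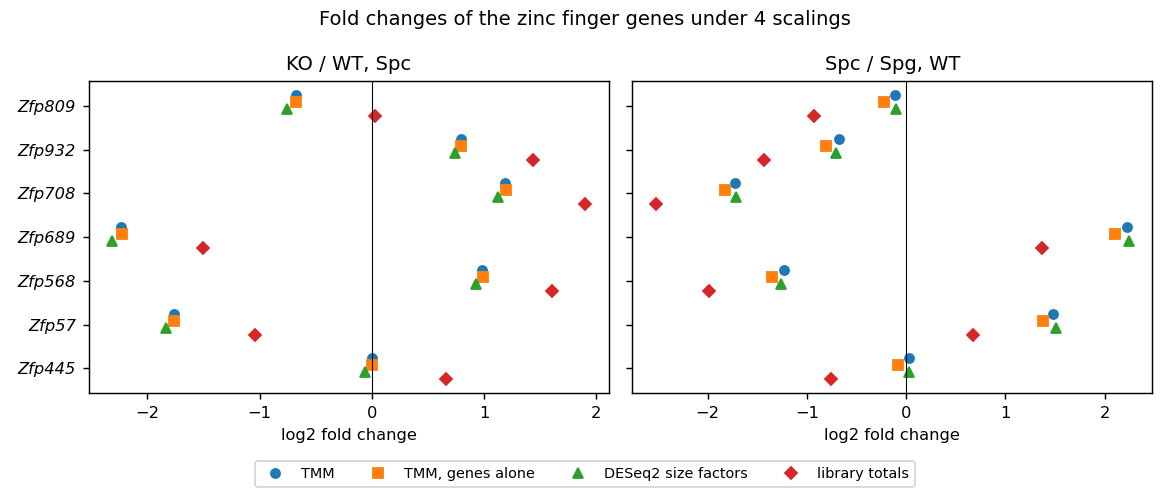
Log2 fold change of each gene for KO over WT in Spc (left) and for WT Spc over WT Spg (right) under 4 scalings, TMM over all features, TMM over genes alone, DESeq2 size factors and library totals. Library totals lie to the right of the other scalings on the left panel and to the left of them on the right panel, which takes Zfp809 to 0.029 on the left and Zfp445 to -0.75 on the right.

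As a frame for these counts, the other genes with symbols of Zfp and a number, a broad class that also holds zinc fingers without a KRAB domain, numbered 365 in both tables. In Spc 175 of the 352 tested (49.7%) were called for KO against WT, 101 higher and 74 lower. Between WT Spc and WT Spg 201 of 360 (55.8%) were called, 72 higher and 129 lower, between KO Spc and KO Spg 2 of 360 (0.556%), and in Spg 0 of 356 for KO against WT, with 11 at an unadjusted p under 0.05.

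The genes whose levels followed each of the 7 most closely over the 14 libraries were found by the root mean square difference of centred log2 CPM, among 16687 genes. For Zfp689 these were Pmpcb (0.104) and Ubald1 (0.111). For Zfp708 they were Gm28557 (0.099), which overlaps it on the same strand, and Cdk8 (0.142), and for Zfp568 Utp20 (0.12) and Tnrc6a (0.124). Zfp445 was nearest to Fam8a1 (0.112) and Zfp280d (0.134), Zfp809 to Stxbp5 and Inppl1 (0.16 each), Zfp932 to Nova1 (0.215) and Gm17597 (0.222) and Zfp57 to Spata2l (0.254) and Camk2n2 (0.274). Under library totals 11 of these 14 were again among the nearest.

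KRAB zinc finger proteins need their corepressors, and 10 genes of this machinery were followed, Trim28, Setdb1, Atf7ip, Cbx1, Cbx3, Cbx5, Chd3, Smarcad1, Morc3 and Sumo2. In Spg 0 of 10 were called for KO against WT, with log2 fold changes of -0.15 to 0.18, none at an unadjusted p under 0.05. In Spc 3 of 10 were called, Trim28 lower and Cbx3 and Smarcad1 higher in KO, where 58.8% of all genes were called. Between WT Spc and WT Spg, a comparison with the same WT Spc libraries, these 3 were called again, Trim28 higher and Cbx3 and Smarcad1 lower in Spc, where 52.5% of all genes were called. They were also the 3 of 10 called for the difference of the KO effect between the stages (25.7% of all genes), and 0 of 10 were called between KO Spc and KO Spg, with 1 at an unadjusted p under 0.05 and none by DESeq2. The median of the 10 for KO against WT in Spc was -0.13.

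Trim28, the corepressor that the KRAB domain binds, had 452, 524 and 455 CPM in WT Spg and 380, 438 and 506 in KO Spg. In Spc it had 1326, 1300, 854 and 1284 CPM in WT and 396, 423, 453 and 406 in KO. As with Zfp689, the WT Spc libraries lay above all others, with replicate 3 the lowest of the 4. The level in KO Spc was lower by a log2 fold change of -1.49 (SE 0.21, adjusted p 0.000178), it was higher in WT Spc than in WT Spg by 1.32 (SE 0.18, adjusted p 3.9e-05), and the KO effects of the stages differed by -1.39 (SE 0.24, adjusted p 0.000854). Under library totals the last 2 were no longer called (0.47, adjusted p 0.0155, and -0.63, adjusted p 0.03). Without both KO Spc replicates 1 and 4 the difference between stages was -1.26 (adjusted p 0.0109).

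Cbx3, the gene of the HP1 protein HP1γ, had 192, 136 and 206 CPM in WT Spg, 54.5, 58.9, 81.3 and 52.9 in WT Spc and 132, 150, 169 and 139 in KO Spc. Smarcad1, a chromatin remodeller that binds TRIM28, had 73.5, 45.9 and 53.4 CPM in WT Spg, 7.78, 7.29, 32.3 and 6.71 in WT Spc and 98.8, 55.9, 86.6 and 109 in KO Spc. WT Spc were the lowest group for both genes. KO against WT in Spc gave 1.28 for Cbx3 (SE 0.19, adjusted p 0.000291) and 2.73 for Smarcad1 (SE 0.53, adjusted p 0.00126). Without both KO replicates 1 and 4 Smarcad1 was not called (2.43, adjusted p 0.0114), and without WT Spc replicate 3 it gave 3.61 (adjusted p 1.12e-05). The difference between the stages was lost for Cbx3 without WT Spc replicate 1 (adjusted p 0.0105) or 4 (adjusted p 0.01) and with Spc replicates 1 and 4 summed (adjusted p 0.0145). For Smarcad1 it was lost in 11 of 14 fits without a single library, with adjusted p up to 0.0234. Over these 14 fits its log2 value ran from 2.31 to 3.43, and the lowest adjusted p (2.63e-05) was without WT Spc replicate 3. Setdb1, chosen for mention after its values were seen since it is the H3K9 methyltransferase of the complex, had 207 to 297 CPM in all libraries and gave 0.04 (95% interval -0.33 to 0.41) for KO against WT in Spc.

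**Figure D4:**
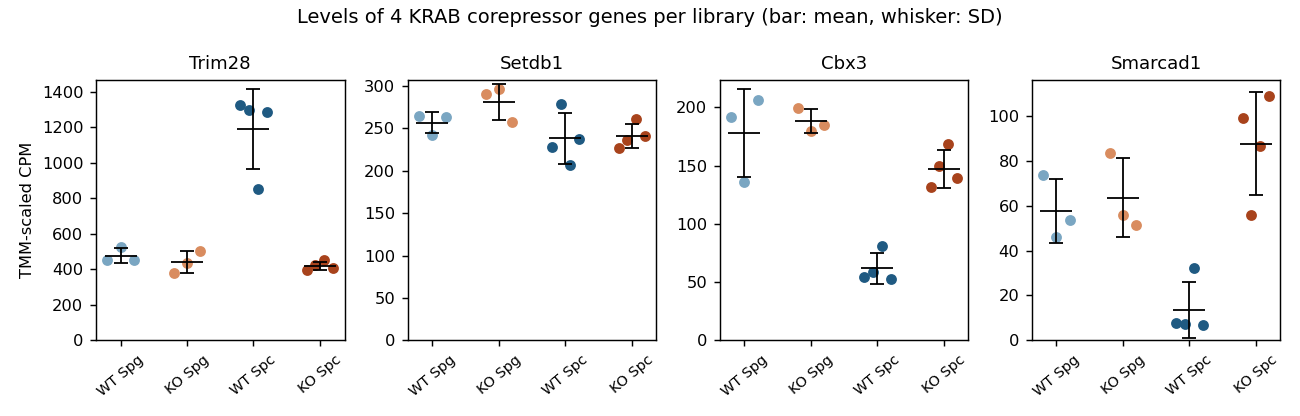
Level of 4 corepressor genes in every library, in TMM-scaled CPM on linear axes that start at 0, with the mean as a bar and the SD as whiskers (WT and KO Spg, n = 3 each, WT and KO Spc, n = 4 each). Trim28 lies at 854 to 1326 CPM in WT Spc and at 380 to 524 elsewhere, Cbx3 and Smarcad1 are lowest in WT Spc, and Setdb1 overlaps in all groups.

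The listed targets were followed as 12 TE subfamilies. L1Md_A, L1Md_T and L1Md_Gf were listed for ZFP689 only through the link of its human counterpart to LINE-1 silencing. In Spg 4 of 12 were called for KO against WT, all higher (L1Md_A, L1Md_Gf, L1Md_T and RLTR10C), where 0.76% of all subfamilies were called. In Spc 7 of 12 were called, where 25.7% of subfamilies were. These were the same 4, MMERVK10C-int and MuLV-int, all higher in KO, and RLTR6B_Mm, which was lower, where 11.7% of subfamilies were called higher. For the difference between the stages 2 of 12 were called (6.44% of subfamilies), between WT Spc and WT Spg 4 of 12, all higher (25.5%, with 22.7% higher), and between KO Spc and KO Spg 2 of 12, L1Md_A and L1Md_T (1.43%). The list was chosen with the responses of L1 and ERVK elements in these data known, so that their direction is not independent evidence. In Spg each of the 4 calls was lost in some fits without a single library, and 0 of 12 were left without WT replicate 1. Over these fits the log2 fold changes ran from 3.245 to 3.685 for L1Md_A and from 4.33 to 4.96 for L1Md_Gf. They ran from 3.86 to 4.44 for L1Md_T and from 2.80 to 3.21 for RLTR10C. Between KO Spc and KO Spg L1Md_A was lost without KO Spg replicate 1 (2.81, adjusted p 0.0103) or 3 (2.51, adjusted p 0.0147), and L1Md_T was kept in 2 of 7 such fits, with an adjusted p of up to 0.0449. For KO against WT in Spg the adjusted p reached 0.0121 for L1Md_A without WT replicate 1 (log2 fold change 3.34, and 3.44 in the main fit). It reached 0.0209 for L1Md_Gf (4.58, main fit 4.64) and L1Md_T (4.07, main fit 4.135) without KO replicate 2. For RLTR10C it reached 0.0339 without KO replicate 3 (3.07, main fit 3.03).

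Of the 6 subfamilies listed for ZFP809, 1 was called higher, 1 lower and 4 were not called for KO against WT in Spc. MuLV-int, the internal part of a murine leukaemia virus, had 28.8, 27.5 and 37.2 CPM in WT Spg, 31.9, 39.5 and 24.4 in KO Spg, 11.4, 15.7, 20.3 and 11.1 in WT Spc and 137, 51.0, 30.4 and 106 in KO Spc. KO Spc replicates 1 and 4 were the highest, and all 4 KO lay above all 4 WT. MuLV-int rose with KO in Spc by 2.50 (SE 0.46, adjusted p 0.000828) and, without KO replicates 1 and 4, by 1.49 (adjusted p 0.00948). In Spg the fold change was 0.00 (95% interval -0.48 to 0.49), and the difference between the stages was 2.43 (SE 0.59, adjusted p 0.00557), a call lost without KO Spg replicate 1 or 3, WT Spg replicate 3 or WT Spc replicate 1 or 4 (2.31 to 2.52, adjusted p up to 0.0152), with the replicate block (2.27, adjusted p 0.0305), with Spc replicates 1 and 4 summed (2.04, adjusted p 0.0219) and without both KO Spc replicates 1 and 4 (1.52, adjusted p 0.018).

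RLTR6B_Mm went the other way, from 49.5, 23.9, 25.3 and 49.1 CPM in WT Spc to 14.6, 10.8, 8.50 and 16.1 in KO Spc, with 4.59 to 9.45 in Spg. Its fold change in Spc was -1.56 (SE 0.36, adjusted p 0.00346), a call lost under library totals (-0.81, adjusted p 0.0393), with replicates 1 and 4 summed (-1.50, adjusted p 0.0207), without KO replicate 2 (-1.48, adjusted p 0.0114) or 3 (-1.41, adjusted p 0.0103) and without WT replicate 1 (-1.41, adjusted p 0.011) or 4 (-1.41, adjusted p 0.0107). From WT Spg to WT Spc it rose by 2.38 (SE 0.39, adjusted p 0.000152), RLTR4_Mm by 1.96 and RLTR4_MM-int by 2.27, and library totals did not call the latter pair (1.11, adjusted p 0.0127, and 1.40, adjusted p 0.0124). The call of RLTR4_MM-int was also lost without WT Spg replicate 3 (1.86, adjusted p 0.0124). It had 525, 574, 317 and 585 CPM in WT Spc and 556, 167, 133 and 504 in KO Spc. Its KO replicates 1 and 4 were thus at the level of WT and replicates 2 and 3 below, with -0.54 for KO against WT (SE 0.46, adjusted p 0.306) and, without replicates 1 and 4, -1.74 (adjusted p 0.0043). RLTR4_Mm moved likewise, from -0.23 (adjusted p 0.615) to -1.21 (adjusted p 0.00924). MMVL30-int, of the VL30 elements, gave 0.70 in Spc (SE 0.32, adjusted p 0.0695), and RLTR6_Mm 0.58 (SE 0.28, adjusted p 0.0848).

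RMER19B, the target of ZFP708, had 41.8, 64.4 and 53.4 CPM in WT Spg, 46.1, 64.7 and 44.1 in KO Spg, 93.8, 101, 106 and 89.1 in WT Spc and 88.3, 66.7, 93.3 and 92.5 in KO Spc. It rose from WT Spg to WT Spc by 0.88 (SE 0.21, adjusted p 0.00217), where Zfp708 fell. The rise was lost without WT Spg replicate 1 (0.58, adjusted p 0.0433) or 3 (0.73, adjusted p 0.0237), with no filter beyond 1 count (0.73, adjusted p 0.0104) and under library totals (0.07, adjusted p 0.799). KO against WT gave -0.17 in Spc (95% interval -0.57 to 0.22) and -0.08 in Spg (95% interval -0.58 to 0.42). MMERVK10C-int, the target of ZFP932, had 431 to 606 CPM in WT Spg, 2022 to 3500 in KO Spg, 79.3 to 431 in WT Spc and 2348 to 4514 in KO Spc. It was higher with KO in Spc by 4.52 (SE 0.63, adjusted p 0.000174), and in Spg the value of 2.30 (SE 0.23, adjusted p 0.0101) just missed the threshold. In Spg 5 of the 12 subfamilies were called with DESeq2, under each of the other scalings, with no filter beyond 1 count and with the replicate block. Without WT Spc replicate 3, the highest of WT Spc, MMERVK10C-int gave 5.52 for KO in Spc (adjusted p 1.6e-06). Zfp932 was not called in either stage.

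**Figure D5:**
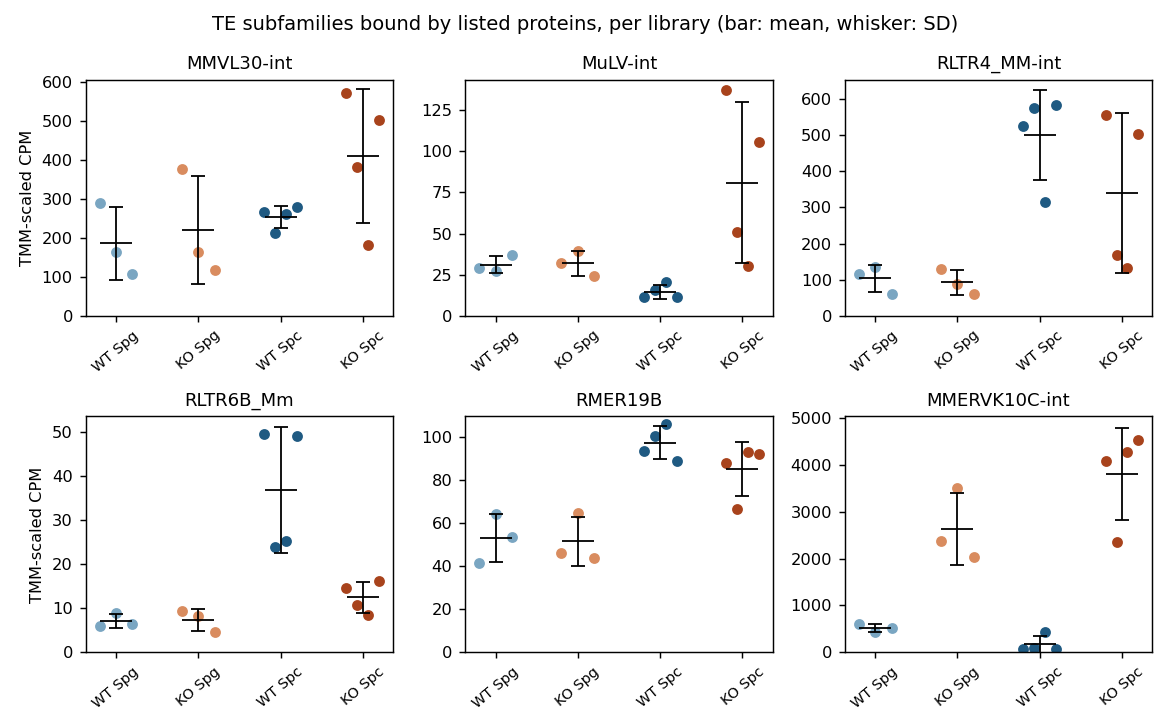
Level of 6 target TE subfamilies in every library, in TMM-scaled CPM on linear axes that start at 0, with the mean as a bar and the SD as whiskers (WT and KO Spg, n = 3 each, WT and KO Spc, n = 4 each). MuLV-int and MMERVK10C-int are higher in all 4 KO Spc than in all WT Spc, RLTR6B_Mm is lower, and RLTR4_MM-int is split among the KO Spc libraries between 133 and 556 CPM.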

How the data were processed

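RNA of sorted spermatogonia and spermatocytes was measured in 14 libraries. The deposited tables give whole-number counts for genes and for TE subfamilies. The sample records name cutadapt 4.0, a read trimmer. Per the methods, the authors aligned reads to GRCm38 with STAR 2.7.3a, keeping multiply aligned reads. They counted with TEtranscripts in stranded mode, so that near-identical copies share reads. The authors' own log2 fold changes and p-values (DESeq2 1.44.0) in the same tables, and their TPM values of single TE copies, were not used. The Spg columns numbered rep4 belong to the samples titled replicate 3. A further Spg library per genotype, which the authors excluded for RNA quality, was not analysed here. The labels do not say that replicates are separate animals, so p-values measure the spread between these samples. The legends of the study speak of 3 biological replicates, and which of the 4 Spc samples these are is not given in the sources used here.

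Counts were fitted in R 4.3.3 with edgeR version 4.0.16 (low counts removed by filterByExpr, TMM over genes and TE subfamilies, quasi-likelihood tests, two-sided, Benjamini-Hochberg over all features tested, called at an adjusted p under 0.01), with each stage on its own and all 14 libraries in 4 groups for contrasts between stages. The fit was tested on simulated data. CPM values come from 1 scaling of all 14 libraries. Nearest genes needed a mean count of at least 50 and used a pseudocount of 0.5. Positions and lengths are from GENCODE M21, which held 99.54% of the gene identifiers, promoters from RefSeq. Alternatives used DESeq2 1.42.0, its size factors, scaling by library totals or by TMM without TE subfamilies, other count filters, an adjusted p under 0.05, the replicate number as a block, each library left out in turn, and Spc replicates 1 and 4 summed. Leaving out both KO Spc replicates 1 and 4 was chosen after seeing the data. Tables and plots used Python 3.11.15, pandas 2.3.3, NumPy 2.4.6, SciPy 1.17.1 and matplotlib 3.10.9.

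The 7 genes were chosen by symbol and not by their own values, though with earlier results of these data known. The marker lists (printed by their sums), the corepressor and target lists and the tests were also chosen with those results known. 1 gene of the corepressor list is not reported here and was left out of its counts. Named are the 7 genes, Gm15446, up to 3 called corepressors per comparison by smallest p, the listed targets with Igf2, and the 2 nearest genes of each of the 7. In Spg the deviations of same-numbered KO and WT libraries from their group means correlated at 0.754, 0.155 and 0.317. KO replicate 2 and WT replicate 3 correlated at 0.323, so that the numbers showed a distinct pairing for replicate 1 alone. The block fit called 0 of the 7 in Spg.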

Additional observations from a re-analysis of the deposited data

Results flagged for a closer look

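Within the WT spermatocytes 2 of the 7 genes had a library far from the others. For Zfp689 it was replicate 3, with 33.7 CPM against 50.2 to 52.8, a gap of 0.863 of the whole range. For Zfp708 it was replicate 2, with 0.392 CPM against 0.895 to 0.910, a gap of 0.971 of the range. Both gaps passed Dixon's 95% critical value for 4 samples, which chance does in about 1 of 20 groups, and 14 groups were looked at.

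The KO effect differed between the stages, by the test of the difference itself, for 1 of the 7 genes and for 6 of their partners and targets. The 6 were 3 of 10 corepressor genes, 2 of 12 subfamilies and Igf2. In this comparison 25.7% of all genes and 6.44% of all TE subfamilies were called. On the log2 scale, Spc minus Spg, the difference was -2.05 for Zfp689 and -1.39 for Trim28, and 1.17 for Cbx3 and 2.55 for Smarcad1. It was 2.38 for L1Md_A and 2.43 for MuLV-int. The call of L1Md_A was lost without KO Spg replicate 3 (2.24, adjusted p 0.0106), with Spc replicates 1 and 4 summed (2.11, adjusted p 0.0159) and without both KO Spc replicates 1 and 4 (2.04, adjusted p 0.0169). For Igf2 it was 5.21, with KO spermatocyte replicates 1 and 4 at 246 and 213 CPM and all other libraries at 3.17 to 40.8. For Igf2 it was 3.19 (adjusted p 0.00404) without these 2 libraries and 4.65 (adjusted p 0.0111, not called) with the replicate number as a block.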

How the results depend on the processing

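The 7 genes called for KO against WT in Spc numbered 2, and 5 with DESeq2 or at an adjusted p under 0.05. They numbered 1 with the replicate block, with Spc replicates 1 and 4 summed and without both KO Spc replicates 1 and 4, and 1 to 2 with single libraries left out. Over all genes the count of 12885 in this comparison became 15027 with DESeq2, 11439 with the block and 8758 with the pair summed. For KO in Spg the 9 genes became 514 with DESeq2, 144 with no filter beyond 1 count, 108 with the block and 0 to 18 with single libraries left out. Between the KO stages 742 became 2337 with DESeq2, 71 with the block and 346 with the pair summed. Between the WT stages 12777 became 8128 with the block, and for the difference between the stages 6251 became 9865 with DESeq2 and 3521 with the pair summed. Library totals turned the split of higher and lower genes from 6145 and 6740 to 8074 and 4880 for KO in Spc and from 7103 and 5674 to 4541 and 8724 between the WT stages. For the 7 genes, between WT Spc and WT Spg the block left 2 of 4, and between KO Spc and KO Spg DESeq2 gave 1 where edgeR gave 0. The other counts of the 7 genes stayed within 1.5 times the main count. Of the 10 corepressor genes the 3 called between the WT stages became 6 under library totals, and the 3 for the difference between the stages 1 with Spc replicates 1 and 4 summed, without both KO Spc replicates 1 and 4, or without WT Spc replicate 1 or 4. Of the 12 target subfamilies the 2 called for the difference between the stages became 4 with DESeq2, 5 at an adjusted p under 0.05, 0 with replicates 1 and 4 summed or both left out in KO, and 0 to 5 without single libraries (5 without WT Spc replicate 3, 0 without KO Spg replicate 3). The 2 between the KO stages became 6 with DESeq2 or at an adjusted p under 0.05, 1 under library totals or with the 2 replicates summed, 0 with the block or both left out, and 0 without KO Spg replicate 1 or 3. The 4 between the WT stages became 7 at an adjusted p under 0.05 and 2 without WT Spg replicate 3, and the 4 for KO in Spg became 1, 0 and 2 without KO replicate 2, WT replicate 1 and WT replicate 2. In Spc the same-numbered KO and WT libraries correlated at 0.106, 0.223, 0.012 and 0.161, so that the numbers do not show a pairing there. Of 1183 values of single features under the alternatives, 1033 kept direction and side of the threshold, 99 lost a call, 11 gained one and 40 changed sign, 0 of them called before. The cause was not tested.

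The changes of sign, on the log2 scale, were as follows. Under library totals Zfp445 gave -0.75 between the WT stages, Zfp57 -0.070 between the KO stages, and Zfp809 0.029 for KO in Spc and 0.12 for the difference between the stages. With TMM on genes alone Zfp445 gave -0.087 between the WT stages and Zfp57 -0.036 between the KO stages. DESeq2 and its size factors both gave -0.060 for Zfp445 with KO in Spc and -0.032 for Zfp57 between the KO stages. Without a filter beyond 1 count Zfp445 gave -0.033 with KO in Spc and -0.11 between the WT stages, and Zfp57 -0.055 between the KO stages, and with a mean count of at least 50 the last 2 were -0.011 and -0.015. The block gave 0.026 for Zfp809 between the WT stages and -0.018 for Zfp932 between the KO stages. For Zfp445 with KO in Spc, summing replicates 1 and 4 gave -0.068 and leaving out both KO replicates -0.11. With single libraries left out, Zfp445 ran from -0.10 to 0.12 for KO in Spc, from -0.19 to 0.12 between the WT stages and from -0.011 to 0.40 between the KO stages. Between the KO stages Zfp57 ran from -0.26 to 0.093 and Zfp932 from -0.057 to 0.36. For KO in Spg the ranges were -0.047 to 0.093 for Zfp568, -0.091 to 0.21 for Zfp708, -0.25 to 0.047 for Zfp809 and -0.38 to 0.077 for Zfp932.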
